A study of Mus musculus with 59 samples.

Results

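The genes described here are 8 CC chemokines that cluster on mouse chromosome 11 and are transcribed by activated myeloid cells: Ccl2, Ccl7 and Ccl12, the monocyte chemoattractant proteins, set against Ccl3, Ccl4, Ccl5, Ccl6 and Ccl9. They were taken by symbol from the deposited expression tables, where each had 1 row, so that 8 of 32070 genes were members and all 8 passed the filter on low values in both tables. CC chemokines are small secreted proteins that draw leukocytes along a gradient by binding G-protein-coupled receptors. Ccl2, Ccl7 and Ccl12 act mainly through Ccr2 and bring monocytes out of the blood, Ccl3, which binds Ccr1, and Ccl4 draw T cells and monocytes, Ccl5 draws T cells, monocytes and eosinophils, and Ccl6 and Ccl9, which rodents have, act through Ccr1. In microglia, lipopolysaccharide (LPS) acts through Toll-like receptor 4, and double-stranded RNA acts through Toll-like receptor 3 and cytosolic RNA sensors. Tbk1 is a kinase below these receptors that phosphorylates the transcription factor Irf3 and so starts type I interferon production.

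Microglia were cultured from newborn pups (P0 or P1) of 3 genotypes, given here as the labels name them. KO cultures came from Tbk1fl/fl mice with the Cx3CR1-Cre transgene, HET cultures from Tbk1fl/+ mice with the same Cre, and WT cultures from Tbk1fl/fl mice without Cre, so that KO and HET share Cre and WT lacks it. The Cre acts in cells that use the Cx3cr1 promoter, and cells of a culture that escaped recombination keep Tbk1. At 16 h after plating, cultures received 100 ng/mL of LPS, 20 ng/mL of the cytokine interleukin-4 (IL4), the synthetic double-stranded RNA poly(I:C) (pIC, at a dose not given in the sources used here) or fresh medium alone (untreated, UT), for 24 h. There were 5 independent cultures per genotype and treatment and 4 for WT UT, 59 libraries in 12 groups. A table of 44 LPS, IL4 and UT libraries and a table of 15 pIC libraries were deposited apart, so pIC was never compared with UT, and levels set side by side across the tables are descriptions. Values are in TPM, transcript abundance corrected for length and scaled to a fixed library total, so levels of different genes can be set side by side, but the number of reads behind a value is unknown.

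Tbk1 itself had 12.1 to 25.8 TPM in KO LPS libraries, 56.5 to 66.7 TPM in HET LPS libraries and 81.9 to 101 TPM in WT LPS libraries, and KO libraries lay below HET and WT libraries under every treatment. All 10 microglia and macrophage markers were detected in every group. Among other cell types, 6 T, NK and B cell markers summed to at most 3.76 TPM in any library, whereas 8 oligodendrocyte-lineage markers summed to 97.5 to 2136 TPM, in ranges that overlapped between genotypes under each treatment. In these bulk samples, fewer cells of a type and less RNA per cell cannot be told apart. A library that stood apart among the KO LPS cultures was replicate 1, with 2886 TPM over 10 interferon reporter genes, against 404 to 1330 TPM in the other 4. Among the KO pIC cultures, replicate 4 had the lowest Ccl2, Ccl7, Ccl12, Ccl3, Ccl4 and Ccl5. Results of the 8 members that turn on either library are also given without it. Results of other genes are given with all libraries and were not examined without these.

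In the GENCODE M21 annotation of GRCm38 (mm10), the 8 genes form a pair of blocks. On the plus strand of chr11, Ccl2 (chr11:82035571-82037453), Ccl7 (chr11:82045712-82047525) and Ccl12 (chr11:82101845-82103400) lie within 67.8 kb. About 1422 kb further along, Ccl5 (chr11:83525778-83530518), Ccl9 (chr11:83572919-83578636), Ccl6 (chr11:83587882-83593087) and Ccl3 (chr11:83647844-83649355) lie on the minus strand and Ccl4 (chr11:83662584-83664683) on the plus strand, within 139 kb. Ccl6 and Ccl9 have 4 exons in the coding transcript and the other 6 genes have 3. Coding sequences were 38.5% to 68.1% identical between pairs of members, highest for Ccl3 with Ccl4, and the longest run of bases that any pair of coding transcripts shared was 25, between Ccl6 and Ccl9. Gm17268 overlaps Ccl2 and E230016K23Rik overlaps Ccl6 on the opposite strand, and the sources used here do not state whether reads were counted by strand.

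Promoter windows, 250 bases before to 50 after the start of transcription, were held in the RefSeq table (GRCm38.p6) for 4 of the 8 genes: Ccl12 and Ccl3, which fell in KO under LPS, and Ccl6 and Ccl9, which were not called there. They are printed 5′ to 3′ in the direction of the gene to show the sequence in front of members of both kinds. Capitals mark matches on either strand to an NF-kB motif (GGNNNTTCC), an interferon-stimulated response element (GAAANNGAA), a STAT motif (TTCNNNGAA), its STAT6 form (TTC and GAA with any 4 bases between), an AP-1 motif (TGANTCA) or a TATA box (TATAAA).
Ccl12 (chr11:82101595-82101894, plus strand): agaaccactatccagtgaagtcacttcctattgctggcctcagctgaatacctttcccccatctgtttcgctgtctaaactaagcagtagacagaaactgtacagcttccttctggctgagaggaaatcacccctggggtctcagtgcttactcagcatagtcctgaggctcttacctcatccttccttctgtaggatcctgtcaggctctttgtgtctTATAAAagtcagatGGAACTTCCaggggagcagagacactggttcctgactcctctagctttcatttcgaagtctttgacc
Ccl3 (chr11:83649329-83649628, minus strand): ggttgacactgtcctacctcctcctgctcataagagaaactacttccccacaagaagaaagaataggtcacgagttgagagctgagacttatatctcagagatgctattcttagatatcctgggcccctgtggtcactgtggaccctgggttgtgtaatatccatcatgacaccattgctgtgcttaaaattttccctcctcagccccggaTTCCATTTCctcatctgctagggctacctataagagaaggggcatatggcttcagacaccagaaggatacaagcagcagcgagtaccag
Ccl9 (chr11:83578587-83578886, minus strand): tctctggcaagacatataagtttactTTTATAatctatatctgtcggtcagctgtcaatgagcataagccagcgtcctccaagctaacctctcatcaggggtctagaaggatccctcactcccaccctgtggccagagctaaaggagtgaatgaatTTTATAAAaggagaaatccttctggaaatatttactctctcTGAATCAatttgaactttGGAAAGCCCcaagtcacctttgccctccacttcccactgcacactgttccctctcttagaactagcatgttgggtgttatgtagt
Ccl6 (chr11:83593038-83593337, minus strand): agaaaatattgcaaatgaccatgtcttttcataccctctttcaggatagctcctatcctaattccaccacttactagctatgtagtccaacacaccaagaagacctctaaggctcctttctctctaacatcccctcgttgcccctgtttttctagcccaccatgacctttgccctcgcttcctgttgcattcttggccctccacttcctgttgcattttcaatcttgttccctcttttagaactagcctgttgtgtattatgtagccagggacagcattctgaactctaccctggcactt
The Ccl12 window held 1 NF-kB position, which matched on both strands and began 17 bases before the start, and a TATA box that began 31 bases before it. The Ccl3 window held 1 interferon-stimulated response element match, the Ccl9 window 1 NF-kB match, 1 AP-1 match and 3 TATA box matches, of which 2 overlap, and the Ccl6 window no match to these letters. Of all 32851 windows in the table, 18.5% held the NF-kB letters, 8.56% the interferon-stimulated response element, 8.3% the STAT motif, 6.95% its STAT6 form, 7.81% the AP-1 motif and 13.6% the TATA box. A match describes the letters of the window and shows no binding.

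LPS raised 7 of the 8 chemokines in microglia of every genotype, and the rise of 6 of them was smaller in KO, though for Ccl5 that call depended on the settings. The exception to the rise was Ccl6, which did not rise in any genotype. In KO, 7 members were called higher by limma at a Benjamini-Hochberg adjusted p under 0.05, where 13.1% of all tested genes were. In HET 7 were called higher, where 14.3% of genes were, and in WT the same 7, where 13.9% of genes were. The median log2 difference over the 8 members was 3.51 in KO, 6.15 in HET and 6.62 in WT, while that over all genes was -0.44 in KO, -0.51 in HET and -0.59 in WT, and changes are read against that shift. Together the 8 transcripts made up 0.579% ± 0.251 of all TPM in KO LPS libraries, 2.59% ± 0.367 in HET LPS libraries and 2.99% ± 0.675 in WT LPS libraries (SD, n = 5 each), against 0.0327% to 0.0367% in the untreated groups.

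Ccl5 had the largest response. It rose by 9.05 ± 0.43 (SE) on the log2(TPM + 1) scale in KO, by 10.94 ± 0.43 in HET and by 11.09 ± 0.45 in WT, with adjusted p-values of 5.16e-21, 5.90e-24 and 3.40e-23 in limma. Ccl2 rose by 4.05 ± 0.46 in KO, 8.56 ± 0.46 in HET and 8.75 ± 0.49 in WT. Ccl7 and Ccl12 kept to the same order, with 3.07 and 2.94 in KO, 7.90 and 6.38 in HET, and 8.66 and 7.18 in WT. The response of Ccl9 was 3.99 ± 0.33 in KO, 3.81 ± 0.33 in HET and 3.64 ± 0.35 in WT.

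**Figure D1:**
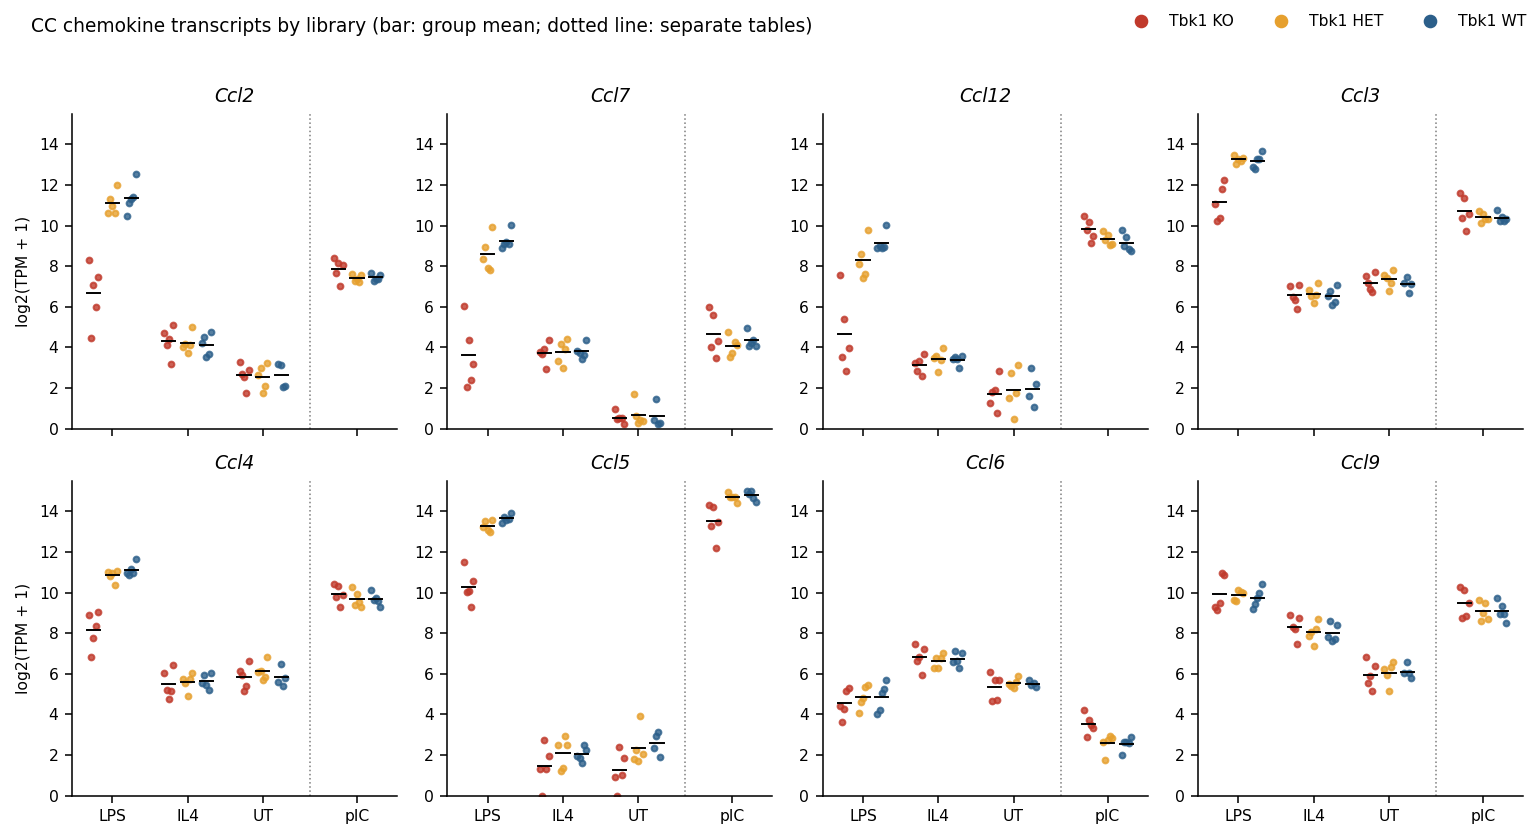
Each panel plots 1 chemokine, with log2(TPM + 1) on the vertical axis and the KO, HET and WT libraries of each treatment side by side (points: libraries; bars: group means; the pIC table stands right of the dotted line). Under LPS the KO points of Ccl2, Ccl7, Ccl3, Ccl4 and Ccl5 lie below every HET and WT point, 1 KO point of Ccl12 lies among the HET points, and those of Ccl6 and Ccl9 overlap both groups.

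**Figure D2:**
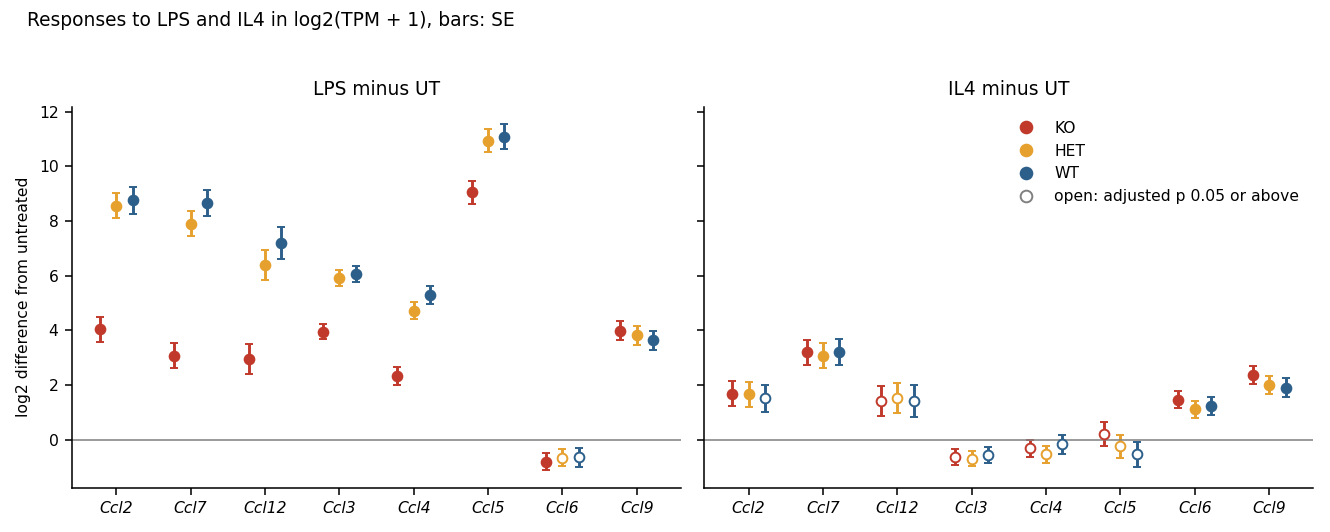
The vertical axis gives the log2 difference of LPS (left) or IL4 (right) from untreated cultures in KO, HET and WT, with bars for the SE and open points where the adjusted p was 0.05 or above. The KO response to LPS lies below those of HET and WT for 6 chemokines, and the 3 genotypes lie together for Ccl6 and Ccl9 and for all 8 chemokines with IL4.

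The question whether Tbk1 loss alters the chemokine output of LPS-treated microglia was addressed by KO against WT and KO against HET. In both, Ccl2, Ccl7, Ccl12, Ccl3, Ccl4 and Ccl5 fell and Ccl6 and Ccl9 were not called. These 6 of 8 members called lower compare with 13.2% of all tested genes for KO against WT and with 11.5% for KO against HET. The median over the 8 was -3.15 against WT and -2.83 against HET, beside 0.01 and 0.02 over all genes. All 3 monocyte chemoattractant genes fell, with a median of -4.70 against WT, and 3 of the other 5 fell, with a median over the 5 of -2.02.

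Ccl2, the main ligand of Ccr2, had 319, 21.4, 134, 63.2 and 173 TPM in the 5 KO LPS libraries, 1554, 2567, 2025, 1560 and 4093 TPM in the HET LPS libraries, and 1421, 2203, 2574, 2702 and 5933 TPM in the WT LPS libraries. The highest KO library was below the lowest HET and WT library. The log2 difference was -4.70 ± 0.46 against WT (26.0-fold lower, adjusted p = 1.10e-10) and -4.44 ± 0.46 against HET (adjusted p = 6.76e-10) in limma.

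Ccl7, which binds Ccr2 and other CC receptors, had 65.8, 3.12, 19.8, 4.26 and 8.12 TPM in KO LPS libraries, 321, 487, 238, 227 and 979 TPM in HET LPS libraries and 480, 543, 574, 539 and 1051 TPM in WT LPS libraries. Its difference, -5.64 ± 0.46 against WT (50.0-fold lower, adjusted p = 1.01e-12) and -4.97 ± 0.46 against HET, was the largest point estimate of the 8 in either comparison. Ccl12, a further Ccr2 ligand of the mouse, had 186, 10.5, 41.3, 6.20 and 14.7 TPM in KO LPS libraries, 273, 387, 168, 196 and 872 TPM in HET LPS libraries and 476, 508, 468, 500 and 1029 TPM in WT LPS libraries. Of Ccl12, KO replicate 1 reached the level of the lowest HET libraries, so KO overlapped HET but stayed below WT. Its difference was -4.49 ± 0.55 against WT (22.5-fold lower, adjusted p = 1.87e-08) and -3.64 ± 0.55 against HET. Without KO LPS replicate 1 the differences from WT and HET were -6.25 and -5.58 for Ccl7 and -5.21 and -4.36 for Ccl12, and the KO responses to LPS were 2.46 for Ccl7 and 2.22 for Ccl12.

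Ccl3, a ligand of Ccr1, was the most abundant member after Ccl5 in LPS-treated WT cells. It had 2168, 1182, 1333, 3595 and 4887 TPM in KO LPS libraries, 11323, 8408, 9864, 9247 and 10419 TPM in HET LPS libraries and 7516, 7060, 9917, 9881 and 12887 TPM in WT LPS libraries. KO overlapped neither HET nor WT, and the difference was -2.02 ± 0.28 against WT (4.07-fold lower, adjusted p = 2.16e-07) and -2.11 ± 0.28 against HET in limma. Ccl4, which attracts T cells and monocytes, had 112 to 526 TPM in KO LPS libraries, 1315 to 2166 TPM in HET LPS libraries and 1878 to 3169 TPM in WT LPS libraries, a difference of -2.94 ± 0.32 against WT (7.67-fold lower, adjusted p = 1.52e-09) and -2.67 ± 0.32 against HET.

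Ccl5, a chemoattractant of T cells and monocytes that is also known as an interferon-responsive gene, had 2895, 1059, 1073, 617 and 1539 TPM in KO LPS libraries, 9546, 11764, 8695, 8092 and 12090 TPM in HET LPS libraries and 10860, 13704, 12064, 12800 and 15679 TPM in WT LPS libraries. Every KO library was below every HET and WT library. The difference was -3.36 ± 0.43 against WT (10.3-fold lower, adjusted p = 4.10e-08) and -2.98 ± 0.43 against HET.

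Ccl9, a Ccr1 ligand, was not called in KO under LPS. It had 627, 570, 715, 1996 and 1849 TPM in KO LPS libraries, 780, 760, 1119, 1053 and 992 TPM in HET LPS libraries and 584, 684, 852, 1014 and 1350 TPM in WT LPS libraries. KO replicates 4 and 5 were above every HET and WT library and the other 3 KO libraries were among or below the lowest of them; the difference from WT was 0.20 ± 0.33 (adjusted p = 0.735). Ccl6, another Ccr1 ligand, had 20.0, 11.3, 18.4, 34.3 and 38.5 TPM in KO LPS libraries, 16.0 to 43.2 TPM in HET LPS libraries and 15.4 to 51.2 TPM in WT LPS libraries. These ranges overlapped, with a difference from WT of -0.31 ± 0.31 (adjusted p = 0.546).

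**Figure D3:**
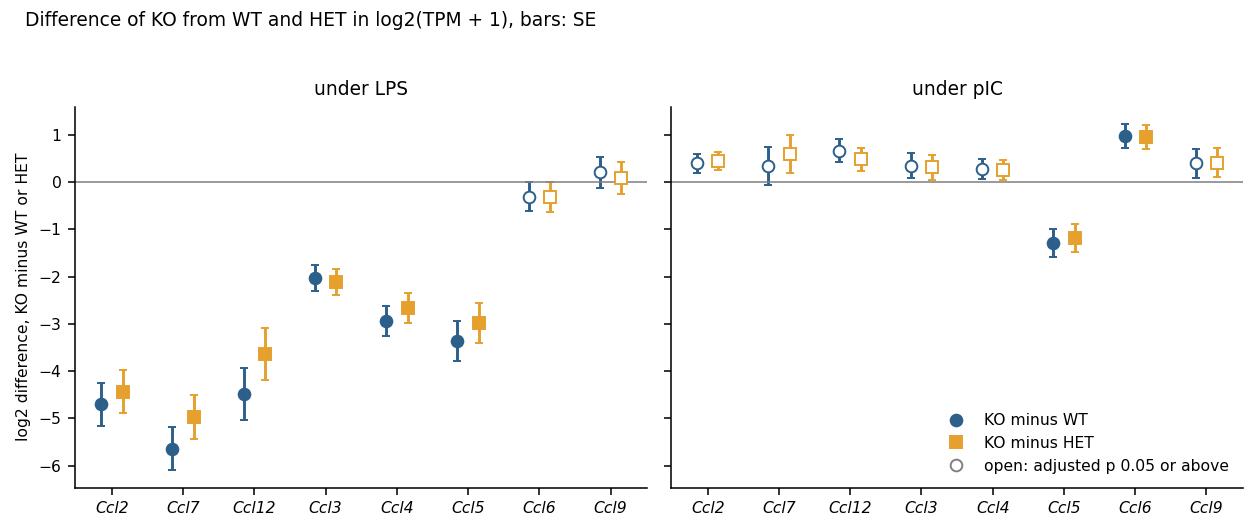
The vertical axis gives the log2 difference of KO from WT (circles) and from HET (squares) under LPS and under pIC, with bars for the SE and open symbols where the adjusted p was 0.05 or above. Under LPS 6 chemokines lie between -5.64 and -2.02, and under pIC Ccl5 alone is called lower and Ccl6 alone is called higher.

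HET and WT were not told apart under LPS for any member. limma called 0 of 8, none had an unadjusted p under 0.05, and 0.0126% of all genes were called in either direction; the exact permutation test gave 1 member under 0.05, Ccl5, at p = 0.0476 unadjusted. The differences of HET from WT ran from -0.85 ± 0.55 for Ccl12 to 0.11 ± 0.33 for Ccl9.

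The difference in the LPS response itself was tested as an interaction. The responses of KO were smaller than those of WT for the same 6 members, where 7.03% of all genes were called lower, and smaller than those of HET for these 6, where 6.15% of genes were. Against WT the difference in response was -4.70 ± 0.67 for Ccl2 (adjusted p = 1.86e-06), -5.58 ± 0.67 for Ccl7, -4.24 ± 0.80 for Ccl12, -2.10 ± 0.41 for Ccl3, -2.97 ± 0.47 for Ccl4 and -2.04 ± 0.62 for Ccl5 (adjusted p = 0.0180) in limma. That for Ccl9 was 0.35 ± 0.48 (adjusted p = 0.717) and that for Ccl6 -0.16 ± 0.45 (adjusted p = 0.881). The Ccl5 value rests on untreated levels near 0: with a pseudocount of 0.1 TPM it was -1.14 against WT (adjusted p = 0.549) and -1.06 against HET (adjusted p = 0.614), and without WT UT replicate 4 the adjusted p against WT was 0.0541. Against HET the Ccl5 call was lost without any 1 of HET LPS replicate 5, HET UT replicates 1 and 3, KO LPS replicates 2 and 4 or KO UT replicates 3 and 5, with adjusted p-values from 0.0520 to 0.0748. It was also lost with no filter on low values (adjusted p = 0.0632), with only the groups compared (adjusted p = 0.0620) and with quantile scaling (adjusted p = 0.0797). Without KO LPS replicate 1 the differences in response against WT and HET were -6.19 and -5.44 for Ccl7 and -4.96 and -4.17 for Ccl12. Between HET and WT, limma called 0 members and 0% of all genes in the LPS response, and no member had an unadjusted p under 0.05.

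The 5 KO cultures differed in which chemokines they held. Relative to the WT mean, KO replicate 1 had the smallest deficits of Ccl2, Ccl7, Ccl12 and Ccl5, at -3.05, -3.19, -1.60 and -2.16 on the log2 scale, and also the highest interferon reporter sum. KO replicates 4 and 5 had interferon reporter sums of 483 and 404 TPM and Ccl12 differences of -6.30 and -5.17, yet their Ccl3 differences, -1.36 and -0.92, were the smallest of the 5 cultures and their Ccl9 was above the WT mean by 1.22 and 1.11. KO replicate 1 also had the least Tbk1 transcript of the 5, 12.1 TPM. As a description over the 15 LPS libraries, deviations from the group means had a Pearson r of 0.98 for Ccl7 with Ccl12 and 0.86 for Ccl3 with Ccl9. Other pairs ran from -0.38 for Ccl12 with Ccl9 to 0.85 for Ccl2 with Ccl7, with 0.85 for Ccl12 with Ccl5, 0.81 for Ccl2 with Ccl4 and 0.0023 for Ccl7 with Ccl3. Over the 15 pIC libraries r was 0.94 for Ccl7 with Ccl3; libraries of 1 stimulus share their scaling.

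**Figure D4:**
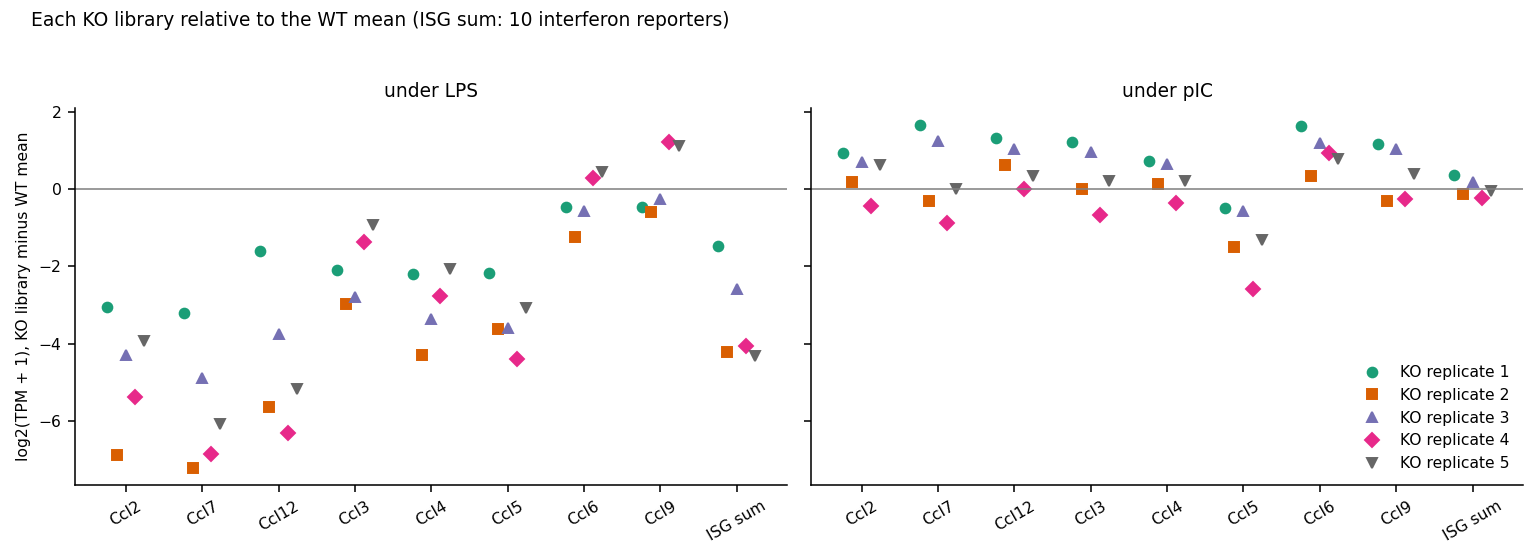
Each symbol is 1 KO culture, placed by the log2 difference of its TPM + 1 from the WT mean under LPS (left) or pIC (right), for the 8 chemokines and for the sum of 10 interferon reporters (ISG sum). Under LPS replicate 1 is highest for Ccl2, Ccl7, Ccl12, Ccl5 and the reporters, and replicates 4 and 5 are highest for Ccl3, Ccl6 and Ccl9.

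Ratios of 2 genes within a library do not depend on the scaling between libraries. The ratio of Ccl2 to Ccl3 in TPM was 0.0176 to 0.147 in KO LPS libraries (median 0.0354), 0.137 to 0.393 in HET LPS libraries (median 0.205) and 0.189 to 0.460 in WT LPS libraries (median 0.273). KO and WT did not overlap, and KO replicate 1 alone reached into the HET range. In untreated cells the ratio was 0.0228 to 0.0473 in KO, 0.0218 to 0.0410 in HET and 0.0234 to 0.0558 in WT, in overlapping ranges. The ratio of Ccl2 to Ccl9 was 0.0317 to 0.509 in KO LPS libraries, 1.48 to 4.13 in HET LPS libraries and 2.44 to 4.39 in WT LPS libraries. Under LPS Ccl9 thus exceeded Ccl2 in every KO culture and in no HET or WT culture. In UT, IL4 and pIC libraries of all genotypes the ratio was at most 0.512, so Ccl9 exceeded Ccl2 there too.

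Under pIC, Ccl5 was lower in KO, Ccl6 was higher, and Ccl2, Ccl7, Ccl12, Ccl3, Ccl4 and Ccl9 were not called. For KO against WT, 1 of 8 members was called lower, where 8.11% of all genes were, and 1 was called higher, where 3.4% of genes were. For KO against HET the same 2 were called, where 3.6% of genes were lower and 1.65% higher. The median over the 8 was 0.37 against WT and 0.43 against HET, beside -0.11 and -0.06 over all genes. Whether the KO effect differs between LPS and pIC was not tested, because the tables are separate.

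Ccl5 reached its highest levels in the series under pIC. It had 20261, 10041, 19108, 4714 and 11503 TPM in KO pIC libraries, 31188, 27027, 26461, 26595 and 21796 TPM in HET pIC libraries and 32707, 29921, 32868, 25570 and 22712 TPM in WT pIC libraries. No KO library reached the lowest HET or WT library. The difference was -1.29 ± 0.30 against WT (2.45-fold lower, adjusted p = 0.0123) and -1.19 ± 0.30 against HET (adjusted p = 0.0327) in limma, and the call against WT was lost with no filter on low values (adjusted p = 0.0684). The ratio of Ccl5 to Ccl3 within a library was 5.62 to 7.53 in KO, 16.9 to 24.3 in HET and 18.0 to 25.3 in WT under pIC, with KO apart from both.

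Ccl6 was low under pIC in all genotypes. It had 17.3, 6.39, 12.3, 10.3 and 9.11 TPM in KO pIC libraries, 5.18, 2.42, 5.57, 6.56 and 6.05 TPM in HET pIC libraries and 3.00, 5.21, 5.29, 4.94 and 6.42 TPM in WT pIC libraries. KO replicate 2 lay within the range of HET and WT and the other 4 KO libraries above it. The difference was 0.98 ± 0.25 against WT (1.97-fold higher, adjusted p = 0.0195) and 0.96 ± 0.25 against HET (adjusted p = 0.0362), and without WT pIC replicate 1 the adjusted p against WT was 0.0545. Against HET the Ccl5 call was lost without any 1 of HET pIC replicates 1 to 4 or KO pIC replicates 2 and 5, with adjusted p-values from 0.0599 to 0.0788. The Ccl6 call was lost without any 1 of HET pIC replicates 1 to 3 or KO pIC replicates 1, 3, 4 and 5, with adjusted p-values from 0.0520 to 0.0864.

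The monocyte chemoattractants under pIC had KO means at or above those of WT. Ccl2 averaged 242 ± 79.7 TPM in KO pIC libraries, 169 ± 21.4 TPM in HET pIC libraries and 176 ± 20.1 TPM in WT pIC libraries (SD, n = 5 each), and Ccl12 averaged 947 ± 341 TPM in KO, 654 ± 138 TPM in HET and 591 ± 192 TPM in WT. The differences from WT were 0.40 ± 0.19 for Ccl2 (adjusted p = 0.198) and 0.66 ± 0.24 for Ccl12 (adjusted p = 0.0910). Without KO pIC replicate 4, which had the lowest value of both genes in KO, they were 0.60 (adjusted p = 0.0103) and 0.83 (adjusted p = 0.0353). Both then passed the threshold, and Ccl2 also passed it against HET (0.66, adjusted p = 0.0120). Leaving out the lowest KO library raises the difference by construction, so these calls add no support. With all libraries the exact permutation test gave unadjusted p-values of 0.151 for Ccl2 and 0.0556 for Ccl12 against WT. With the culture number as a block, limma called Ccl12 higher against WT (adjusted p = 0.000593) and HET (adjusted p = 0.00611). Ccl2 was not called in that fit. Whether the numbers mark shared batches under pIC was not tested. Ccl7 averaged 30.7 ± 22.6 TPM in KO, 16.7 ± 6.18 TPM in HET and 19.8 ± 6.13 TPM in WT. For Ccl3, Ccl4 and Ccl9 the differences from WT were 0.34, 0.27 and 0.40, with adjusted p-values of 0.438, 0.454 and 0.431. Between HET and WT under pIC limma called 0 of 8 members, none had an unadjusted p under 0.05 or passed the exact permutation test, and 0% of all genes were called.

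The order of the Ccr2 ligands differed between the stimuli. The ratio of Ccl12 to Ccl2 in TPM was 0.0850 to 0.582 in KO, 0.0832 to 0.213 in HET and 0.174 to 0.335 in WT under LPS, and 2.66 to 4.42 in KO, 2.85 to 4.41 in HET and 2.25 to 4.28 in WT under pIC. Ccl2 thus exceeded Ccl12 in all 15 LPS libraries and Ccl12 exceeded Ccl2 in all 15 pIC libraries, as a description of levels within a library.

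**Figure D5:**
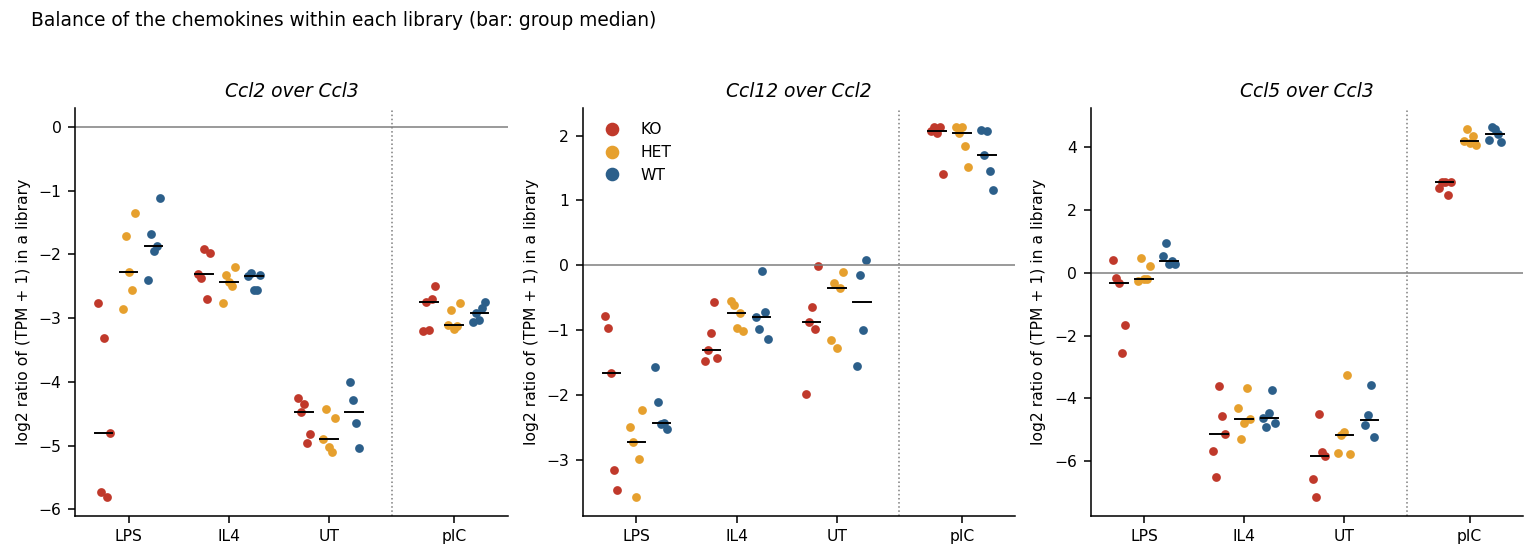
The vertical axes give the log2 ratio of TPM + 1 of 2 chemokines in the same library, for KO, HET and WT under each treatment (bars: group medians; dotted line: separate tables). Among the LPS groups the median of Ccl2 over Ccl3 is lowest in KO, and KO replicate 1 reaches into the HET range. Ccl12 over Ccl2 is above 0 in every pIC library, and Ccl5 over Ccl3 is lower in KO than in HET and WT under pIC.

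IL4, a cytokine of alternative activation that signals through STAT6, raised Ccl7, Ccl9 and Ccl6 in every genotype, and Ccl2 in KO and HET. In KO 4 members were called higher, where 5.38% of all genes were, in HET the same 4, where 3.97% of genes were, and in WT 3, where 3.68% of genes were. Ccl7 averaged 13.0 ± 4.64 TPM with IL4 and 0.473 ± 0.284 TPM untreated in KO, 13.5 ± 5.57 and 0.742 ± 0.884 TPM in HET, and 13.3 ± 3.77 and 0.621 ± 0.755 TPM in WT (SD; n = 5, 4 for WT UT). Its log2 differences were 3.19 ± 0.46, 3.08 ± 0.46 and 3.20 ± 0.49, with adjusted p-values of 2.04e-06, 4.84e-06 and 8.36e-06 in KO, HET and WT.

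Ccl9 averaged 336 ± 117 TPM with IL4 and 66.7 ± 31.1 TPM untreated in KO, and 268 ± 86.4 and 69.6 ± 18.1 TPM in WT, differences of 2.36 ± 0.33 and 1.91 ± 0.35. Ccl6 had its highest levels in the series with IL4, 118 ± 43.9 TPM against 43.3 ± 18.6 TPM untreated in KO and 107 ± 25.1 against 44.6 ± 4.57 TPM untreated in WT, differences of 1.45 ± 0.31 (adjusted p = 0.00114) and 1.22 ± 0.33 (adjusted p = 0.0161). In WT the Ccl6 call was lost without WT IL4 replicate 2 or WT UT replicate 4, with adjusted p-values of 0.0565 and 0.0564. Ccl2 averaged 20.6 ± 9.49 TPM with IL4 and 5.49 ± 2.25 TPM untreated in KO, a difference of 1.68 ± 0.46 (adjusted p = 0.0131), and 17.4 ± 6.39 and 5.60 ± 2.77 TPM in WT, a difference of 1.51 ± 0.49 (adjusted p = 0.0546). Fitted with the culture number as a block within each genotype, the WT value for Ccl2 was 1.29 (adjusted p = 0.0154), so it passed, as it did without WT IL4 replicate 3 or 4 (adjusted p = 0.0454 and 0.0490). It also passed with quantile scaling, a pseudocount of 0.1 TPM or only the groups compared, with adjusted p-values from 0.0275 to 0.0437.

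Ccl12 differed between IL4 and untreated cells by 1.41 ± 0.55 in KO, 1.52 ± 0.55 in HET and 1.42 ± 0.58 in WT, with adjusted p-values of 0.117, 0.0938 and 0.158. In KO it passed with the block within genotype (adjusted p = 0.0270) and in a fit of only the groups compared (adjusted p = 0.0398). The two-sided exact permutation test gave unadjusted p-values of 0.0238 in KO, 0.0159 in HET and 0.0159 in WT, and without HET UT replicate 5 the HET value was 1.83 (adjusted p = 0.0395). Ccl3 differed by -0.64 ± 0.28 in KO, -0.70 ± 0.28 in HET and -0.57 ± 0.30 in WT, with adjusted p-values of 0.184, 0.141 and 0.288, and in KO 0.0427 with the block within genotype. The exact permutation test gave an unadjusted p of 0.0317 in HET. Ccl4 and Ccl5 were not called in any genotype.

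The IL4 calls of Ccl2 and Ccl6 turned on single cultures elsewhere too. Ccl2 lost its call in KO without KO UT replicate 4 or KO IL4 replicate 5 (adjusted p = 0.0590 and 0.0567). In HET it lost its call without HET UT replicate 3, HET UT replicate 4 or HET IL4 replicate 5, and Ccl6 without HET UT replicate 3 or HET IL4 replicate 5. In HET, 2 to 5 members were called as 1 library was left out. No member's IL4 response was called as differing between genotypes: 0 of 8 by limma and 0% of all genes for KO minus WT, KO minus HET and HET minus WT, with no unadjusted p under 0.05.

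Within IL4-treated cultures, limma called 0 of 8 members in each genotype comparison, with no unadjusted p and no exact permutation p under 0.05. Of all genes, 0.044% were called for KO against WT, 0.00629% for KO against HET and 0.0126% for HET against WT. In untreated cultures 0 of 8 were called as well, where 0.0314% of genes were for KO against WT, 0.00629% for KO against HET and 0.0126% for HET against WT; Ccl5 had an unadjusted p under 0.05 for KO against WT and KO against HET, and no member passed the exact permutation test. Untreated Ccl5 averaged 1.78 ± 1.70 TPM in KO, 5.14 ± 5.06 TPM in HET and 5.27 ± 2.29 TPM in WT.

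Untreated cells held more Ccl3 than any other member on average, with 150 ± 42.8 TPM in KO UT, 167 ± 43.4 TPM in HET UT and 140 ± 28.8 TPM in WT UT. Ccl9 came next in KO and WT and Ccl4 in HET, in overlapping ranges: Ccl9 averaged 66.7 ± 31.1 TPM in KO, 68.7 ± 22.4 TPM in HET and 69.6 ± 18.1 TPM in WT, and Ccl4 60.2 ± 24.6 TPM in KO, 71.6 ± 25.0 TPM in HET and 57.9 ± 21.7 TPM in WT. Ccl2 was ordered as WT LPS (2967 ± 1732 TPM) and HET LPS (2360 ± 1055 TPM), then the 3 pIC groups and KO LPS (142 to 242 TPM on average), IL4 (17.4 to 20.6 TPM) and UT (5.28 to 5.60 TPM). Neighbours in that order overlapped except HET LPS with KO pIC and WT IL4 with WT UT. For Ccl6 the order was IL4, then UT (43.3 to 45.6 TPM), LPS (24.5 to 30.7 TPM) and pIC (4.97 to 11.1 TPM). LPS against UT gave Ccl6 a difference of -0.81 ± 0.31 in KO, where it passed (adjusted p = 0.0209) and where 56.5% of all genes were called lower, of -0.66 ± 0.31 in HET (adjusted p = 0.0553) and of -0.65 ± 0.33 in WT (adjusted p = 0.0720). With the block within genotype the WT value was -0.79 (adjusted p = 0.0123). With median-of-ratios scaling the 3 differences were -0.30, -0.05 and 0.01, none called. The KO call was also lost with quantile scaling (adjusted p = 0.228), with only the groups compared (adjusted p = 0.0774), in the exact permutation test (unadjusted p = 0.111) and without KO UT replicate 1, KO UT replicate 3 or KO LPS replicate 2. It was gained in HET without HET LPS replicate 4 or 5 and in WT without WT LPS replicate 5.

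Receptors were measured in the same libraries. Under LPS Ccrl2, a receptor homologue that binds chemerin and does not signal by chemotaxis, averaged 39.0 ± 12.6 TPM in KO, 117 ± 52.5 TPM in HET and 187 ± 68.3 TPM in WT, a difference of -2.22 ± 0.23 from WT. Ccr2, the receptor of Ccl2, Ccl7 and Ccl12, was at most 0.463 TPM in any LPS library and averaged 3.68 ± 1.54 TPM in KO, 3.66 ± 0.943 TPM in HET and 3.58 ± 0.636 TPM in WT with IL4. Ccr1 averaged 62.6 ± 24.0 TPM in KO LPS libraries and 82.1 ± 15.4 TPM in WT LPS libraries.

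Other chemokines of LPS-treated KO cells did not all follow the 6. Of 12 further CC chemokines 6 were tested, of which 3 rose in KO against WT and 1 fell, with a median of 0.67; of all genes tested, 14.4% were called higher and 13.2% lower in that comparison, with a median of 0.0073. Those that rose were Ccl17, Ccl22 and Ccl24, with 16.4 ± 25.9, 56.7 ± 77.2 and 2.51 TPM in KO and 0.624 ± 0.659, 6.28 ± 5.38 and 0.124 TPM in WT, and Ccl8, a ligand of Ccr8 in the mouse, fell by 1.84 ± 0.35. Of 13 CXC and CX3C chemokines tested of 14, 6 rose and 3 fell, with a median of 0.26, beside the same 14.4% and 13.2% of all genes. The 3 that fell were the Cxcr3 ligands Cxcl10, Cxcl9 and Cxcl11, with differences of -5.41 ± 0.53, -4.19 ± 0.19 and -4.07 ± 0.36, and among those that rose Pf4 averaged 1006 ± 217 TPM in KO and 137 ± 55.0 TPM in WT. Under pIC Ccl22, Cxcl9 and Cxcl11 fell in KO against WT, with differences of -1.91, -1.33 and -0.80, and Cxcl10 was not called.

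All 10 interferon reporters fell in KO against WT under LPS, where 13.2% of all genes were called lower, with a median of -3.23; Cxcl10 and Irf7 stand in other lists too. Under pIC 3 of the 10 rose (Ifit2, Ifit3 and Mx1), Oasl1 fell by 1.34 ± 0.21 and 6 were not called, with a median of 0.01, where 3.4% of all genes rose and 8.11% fell. Of 30 receptor, NF-kB and interferon signalling genes tested of 31 under LPS, 15 fell and 3 rose, where 13.2% of all genes fell and 14.4% rose, with a median of -0.38, and the largest changes among these were Irf7 (-3.01 ± 0.30), Stat2 (-1.43 ± 0.18), Tnfaip3 (-1.31 ± 0.15) and Tlr3 (-1.11 ± 0.16). Of 6 mRNA decay factors 3 rose and 2 fell under LPS, beside the same shares of all genes: Zfp36, which destabilizes AU-rich transcripts, fell by 1.81 ± 0.19, and Zfp36l2 rose by 1.64 ± 0.09. Under pIC Zfp36 rose by 0.84 ± 0.14 and Zfp36l2 fell by 0.52 ± 0.10.

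Some markers of other myeloid cells differed in the same LPS libraries. The 10 monocyte and border-macrophage markers summed to 950 to 1507 TPM in KO LPS libraries, 484 to 966 TPM in HET LPS libraries and 463 to 555 TPM in WT LPS libraries. The KO range overlapped that of HET and lay above that of WT. Pf4 alone averaged 1006 ± 217 TPM of that sum in KO and 137 ± 55.0 TPM in WT. Of the 6 tested, 3 rose in KO against WT (Pf4, Ly6c2 and Mrc1), where 14.4% of all genes did, Ms4a7 fell and 2 were not called. Ccr2, Cd163, Lyve1, F13a1 and Cd209f were under 1 TPM in every KO, HET and WT LPS library, with Cd163 at 0 in every WT LPS library. Of 10 microglia and macrophage markers 6 rose in KO against WT under LPS, where 14.4% of all genes did, with summed levels of 3748 to 5596 TPM in KO, 3287 to 3669 TPM in HET and 2906 to 3782 TPM in WT. In that comparison limma called 0 of 8 astrocyte, 8 oligodendrocyte-lineage and 7 neuron markers, and 0 of them had an unadjusted p under 0.05. The part of these markers in the chemokine results was not tested.

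Genes whose levels were most like those of 3 members are given as a description, without a test, since the libraries share treatments. Over the 44 LPS, IL4 and UT libraries, the genes with the highest Pearson correlation of log2(TPM + 1) with Ccl2, among 11079 candidates, were B2m (r = 0.99), H2-D1 and H2-K1 (0.98 each), Mmp13 (0.98) and Ifi203 (0.97). For Ccl3 they were Tnf, Cflar, Milr1, Car13 and Cd69 (r = 0.99 each, or 0.995 for Tnf). For Ccl6 they were Dhrs9, Clec7a, Lasp1, Cdk18 and Pcna, between 0.871 and 0.888. Over the 15 pIC libraries, among 9646 candidates, Ccl2 was most like Mxd1 (r = 0.92), Ccl3 and Fam114a1, Ccl3 most like Mxd1 (0.95), Il27 and Ccl7, and Ccl6 most like Glrx (0.89), Slfn2 and Arpc3.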

How the data were processed

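RNA from primary mouse microglia was made into mRNA libraries with the Kapa mRNA Hyperprep kit, per the labels, and the authors deposited TPM per gene in 2 tables, of 44 LPS, IL4 and UT libraries and of 15 pIC libraries. Trimmomatic, DRAGEN, FastQC, Picard and the mm10 build are named in the submitters' processing notes; versions are not given in the sources used here. Deposited TPM summed to 999806 to 999936 per library with 12428 to 14581 genes detected. TPM keep no depth, so the reads behind a value are unknown. The limma p-values set a difference against the spread between libraries within groups, estimated over all groups of a table.

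Each table was fitted apart with limma 3.58.1 in R 4.3.3 on log2(TPM + 1), with 1 mean per group and an empirical Bayes variance trend, over genes that reached 1 TPM in 4 or more libraries of that table (15908 and 13919 genes). Fold changes are on the log2(TPM + 1) scale, which understates the change of low genes. P-values were adjusted by the Benjamini-Hochberg method over all genes of a table, with a threshold of 0.05, and single genes were also compared by a two-sided exact permutation test. The fit was tested on simulated data. Named genes were all 8 members and, of each gene list, up to 4 called genes by absolute log2 difference; counts over the chemokine receptors are not reported here. The members and lists were chosen with earlier results of these data known. Calls of list genes are given for KO against WT, which also differ in Cre, and not for KO against HET. Gene positions and coding sequences came from GENCODE M21.

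The labels give the replicates as independent cultures and number them. Same-numbered libraries deviated together, with a correlation over 0.1 in every pair, for LPS against UT in KO (0.13 to 0.35) and WT (0.12 to 0.27), for IL4 against UT in KO (0.17 to 0.56) and WT (0.19 to 0.42) and for HET against WT untreated (0.12 to 0.29); there the value with the culture number as a block within genotype stands beside a result whose call it changes. Alternatives were a pseudocount of 0.1 TPM, all genes without the filter, quantile and median-of-ratios scaling, a fit of only the groups compared, the replicate block, the exact test and leaving out each library.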

Additional observations from a re-analysis of the deposited data

Results flagged for a closer look

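Of 96 sets of libraries (8 chemokines in 12 groups), 11 held a library far from the others of its group by Dixon's test on TPM. Chance gives about 1 in 20 for independent sets with a normal spread. These sets share libraries, and the spread of TPM was not tested, so the count is not read against that rate. All 11 libraries stood at the high end of their group. Under LPS, KO replicate 1 stood high with 65.8 TPM of Ccl7 (others 3.12 to 19.8 TPM) and 186 TPM of Ccl12 (others 6.20 to 41.3 TPM), and WT replicate 5 with 5933 TPM of Ccl2 (others 1421 to 2702 TPM), 1051 TPM of Ccl7 (others 480 to 574 TPM) and 1029 TPM of Ccl12 (others 468 to 508 TPM). Both were also the highest libraries of their group in summed interferon reporters, with 2886 TPM and 11774 TPM. Under pIC, WT replicate 1 had 30.4 TPM of Ccl7 (others 15.7 to 19.7 TPM), and with IL4, HET replicate 5 had 30.5 TPM of Ccl2 (others 12.3 to 17.2 TPM). Among untreated cultures, HET replicate 1 had 2.31 TPM of Ccl7, WT replicate 2 had 1.75 TPM of Ccl7, HET replicate 5 had 114 TPM of Ccl4 and HET replicate 4 had 14.1 TPM of Ccl5.

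The response to LPS differed between genotypes for 6 chemokines by limma's interaction test, but the Ccl5 call depended on the settings. With a pseudocount of 0.1 TPM the Ccl5 difference was -1.14 against WT and -1.06 against HET, neither called. KO minus WT was -4.70 for Ccl2, -5.58 for Ccl7, -4.24 for Ccl12, -2.10 for Ccl3, -2.97 for Ccl4 and -2.04 for Ccl5 on the log2 scale. KO minus HET was -4.51 for Ccl2, -4.82 for Ccl7, -3.45 for Ccl12, -1.96 for Ccl3, -2.39 for Ccl4 and -1.89 for Ccl5.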

How the results depend on the processing

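No alternative turned the direction of a called value. The 6 members called lower in KO under LPS, against WT and against HET, kept their calls in every alternative run. Of single-gene results under settings other than leaving out a library, 1538 kept their side of the threshold. Of the others, 28 gained a call and 18 lost one. These numbers include the exact permutation test, whose unadjusted p was read against the threshold set for adjusted p-values. Gains and losses by that test are therefore not calls by adjusted p. With 1 library left out, the numbers were 2293, 9 and 34. With no filter on low values, 0 members were called lower for KO against WT under pIC, and 0 higher and 0 lower for KO against HET under pIC. Median-of-ratios and quantile scaling gave 0 higher and 0 lower for KO against HET under pIC and 0 lower for LPS against UT in KO, as did a fit of only the groups compared, which also gave 1 lower for LPS against UT in HET. With the replicate block, 2 members were called higher under pIC for KO against WT and for KO against HET (Ccl6 and Ccl12; Ccl12 at adjusted p = 0.000593 and 0.00611), 1 lower for LPS against UT in HET and WT (Ccl6), and 1 lower for IL4 against UT in KO, HET and WT (Ccl3). The replicate block within genotype gave 1 lower for LPS against UT in HET (Ccl6, adjusted p = 0.0221) and WT and 1 lower for IL4 against UT in KO and HET (Ccl3, adjusted p = 0.0261 in HET). Both blocks also called Ccl12 higher for IL4 against UT in HET (adjusted p = 0.0403 and 0.0180), and the block within genotype did in KO. The Ccl5 difference in LPS response between KO and HET lost its call with no filter, only the groups compared, quantile scaling and a pseudocount of 0.1 TPM (adjusted p = 0.0632, 0.0620, 0.0797 and 0.614). In the other comparisons not every same-numbered pair had a correlation over 0.1. There the mean correlation ran from 0.087 (KO against HET under LPS) to 0.285 (IL4 against UT in HET). Under pIC it was 0.153 for KO against WT, 0.097 for KO against HET and 0.245 for HET against WT. Whether the numbers mark shared batches was not tested.

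Leaving out 1 library gave 0 to 3 members higher for KO against WT under pIC, 0 to 1 higher and 0 to 1 lower for KO against HET under pIC, 0 to 1 lower for LPS against UT in KO, HET and WT, and 2 to 5 higher for IL4 against UT in HET. The cause of these changes was not tested. Untreated Ccl5 and Ccl7 lie near 0 TPM, where the pseudocount sets the size of a log2 difference.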
